A study of Mus musculus with 6 samples.

Results

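Intermediate filaments are the rope-like part of the cytoskeleton, and the 10 genes described here are members of that family: nestin (Nes), vimentin (Vim), synemin (Synm), the keratins Krt5, Krt8, Krt14, Krt18 and Krt19, and the B-type lamins Lmnb1 and Lmnb2. They were found by their symbols among the 50763 genes of the count table, and all 10 were present. They were chosen by their measured difference between the K68R and WT libraries, so that difference is given for them as a description and with no test. RNA was sequenced from embryonic mouse fibroblasts, primary mesenchymal cells in brief culture, taken at E13.5 on a C57BL/6 background. The 3 K68R libraries carry a CRISPR knock-in in Sod2, the gene of the mitochondrial manganese superoxide dismutase, in which a lysine is replaced by arginine as a mimic of the non-acetylated enzyme. The 3 WT libraries are from embryos without it. The zygosity of the knock-in, and how many embryos or cultures stand behind a library, are not given in the sources used here.

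Vimentin is the main intermediate filament protein of mesenchymal cells. Nestin and synemin are large proteins that build filaments only together with a partner such as vimentin or desmin, nestin being known from neural and muscle progenitors and synemin from muscle. Keratins are the filaments of epithelia and form obligate pairs of an acidic type I and a basic type II chain: Krt5 with Krt14 in the basal layer of stratified epithelia, and Krt8 with Krt18, often joined by Krt19, in simple epithelia and mesothelium. Lamins form the meshwork under the inner nuclear membrane. Lmnb1 and Lmnb2 encode its B-type chains, which stay farnesylated, and Lmna encodes the A-type chains.

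Libraries held between 26200088 and 40691447 counted read pairs. Levels are in CPM, the counts per TMM-scaled library size, and a floor of 3 counts equals 0.0728 to 0.116 CPM. Of 16730 genes with enough counts for the edgeR fit, 81.4% passed an adjusted p of 0.05 after Benjamini-Hochberg correction (40.8% higher in K68R, 40.5% lower), so a call by itself says little here. Sod2 was at 45.6 to 48.9 CPM in K68R and at 68.9 to 71.8 CPM in WT. Log2 fold changes depended on transcript length and base composition over all genes: the median over 1342 tested genes with at least 6000 exonic bases and 50% to 60% GC was 1.54 (K68R over WT). For this reason the log2 fold changes of the 10 genes and of the named genes of the lists are given from another fit too. In that fit a smooth surface over exon length and GC content was taken out of every library. For Sod2 the log2 fold change was -0.57, and -0.17 with the surface taken out. All 13 fibroblast markers were expressed in both genotypes, 6 higher and 7 lower in K68R, with a median of -0.32 and a summed level of 14492 to 14582 CPM against 5035 to 5077 CPM. With the surface taken out, 5 were higher and 8 lower at a median of -0.88. Fn1, Col1a1 and Col1a2, genes of the extracellular matrix, were 18.5-fold, 14.8-fold and 3.94-fold higher, and their log2 fold changes of 4.21, 3.89 and 1.98 became 2.72, 1.53 and 0.54. Pdgfra, a receptor of mesenchymal cells, was 5.56-fold lower (-2.48 on the log2 scale, and -2.91).

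The upstream sequences of the gene that rose most, of the most abundant gene and of the keratin pair that nearly vanished are shown first, since their transcripts differ most in level or in change. Each is the 250 bases before the RefSeq start in build GRCm38.p6, 5′ to 3′ on the strand of the gene. Capitals mark the motifs TATAAA and CCAAT as well as GGGCGG, searched on both strands together with TGANTCA (the AP-1 motif, where N is any base). ATTGG is CCAAT and CCGCCC is GGGCGG read from the other strand.
Nes, chr3:87970843-87971092, plus strand: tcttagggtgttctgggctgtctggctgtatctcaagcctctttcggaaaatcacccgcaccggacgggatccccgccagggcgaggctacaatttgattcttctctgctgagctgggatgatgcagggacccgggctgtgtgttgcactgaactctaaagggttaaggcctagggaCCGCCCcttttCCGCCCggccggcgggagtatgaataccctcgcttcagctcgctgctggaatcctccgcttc
Vim, chr2:13574061-13574310, plus strand: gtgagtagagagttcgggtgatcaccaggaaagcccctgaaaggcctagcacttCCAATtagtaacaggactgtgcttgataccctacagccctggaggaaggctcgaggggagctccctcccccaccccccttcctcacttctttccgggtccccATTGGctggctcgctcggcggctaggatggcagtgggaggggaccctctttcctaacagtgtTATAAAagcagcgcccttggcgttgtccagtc
Krt5, chr15:101712906-101713155, minus strand: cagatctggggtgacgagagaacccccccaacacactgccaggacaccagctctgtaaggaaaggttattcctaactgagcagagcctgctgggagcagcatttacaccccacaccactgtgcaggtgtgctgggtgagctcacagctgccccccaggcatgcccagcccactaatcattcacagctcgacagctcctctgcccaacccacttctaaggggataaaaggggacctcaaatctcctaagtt
Krt14, chr11:100206031-100206280, minus strand: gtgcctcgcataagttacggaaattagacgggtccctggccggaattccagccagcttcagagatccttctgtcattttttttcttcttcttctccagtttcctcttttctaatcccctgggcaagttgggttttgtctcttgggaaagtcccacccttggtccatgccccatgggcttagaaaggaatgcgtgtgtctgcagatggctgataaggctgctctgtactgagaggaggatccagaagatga
The Nes window held 2 GGGCGG motifs, 73 and 62 bases before the start. The Vim window held a TATAAA motif at 32 bases and CCAAT motifs at 196 and 94 bases before the start. No match was found for any of the 4 motifs in the Krt5 and Krt14 windows. The windows were not matched to the mm39 gene starts given below. The absence therefore holds for these windows only and not for other starts of the genes. Among 32851 such windows of all genes, 12.4% held TATAAA, 33.8% CCAAT, 32.7% GGGCGG and 6.75% TGANTCA. The table had windows for 8 of the 10 genes.

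All 10 genes passed the filter on low counts, 2 of them (Krt5 and Krt14) through the WT libraries alone. In 4 genes every K68R library lay above every WT library and in 5 every one lay below, while 1 overlapped, beside 82.3% of all tested genes without overlap (41.3% higher, 41.0% lower). Nes and Synm were at least 2-fold higher and Krt5, Krt14 and Krt8 at least 2-fold lower, where 22.2% and 7.64% of all tested genes were (22.1% and 7.57% when the call is also asked for). The median log2 fold change of the 10 was -0.19, and that of all tested genes -0.01. These shares describe how the genes were picked as much as the cells.

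**Figure D1:**
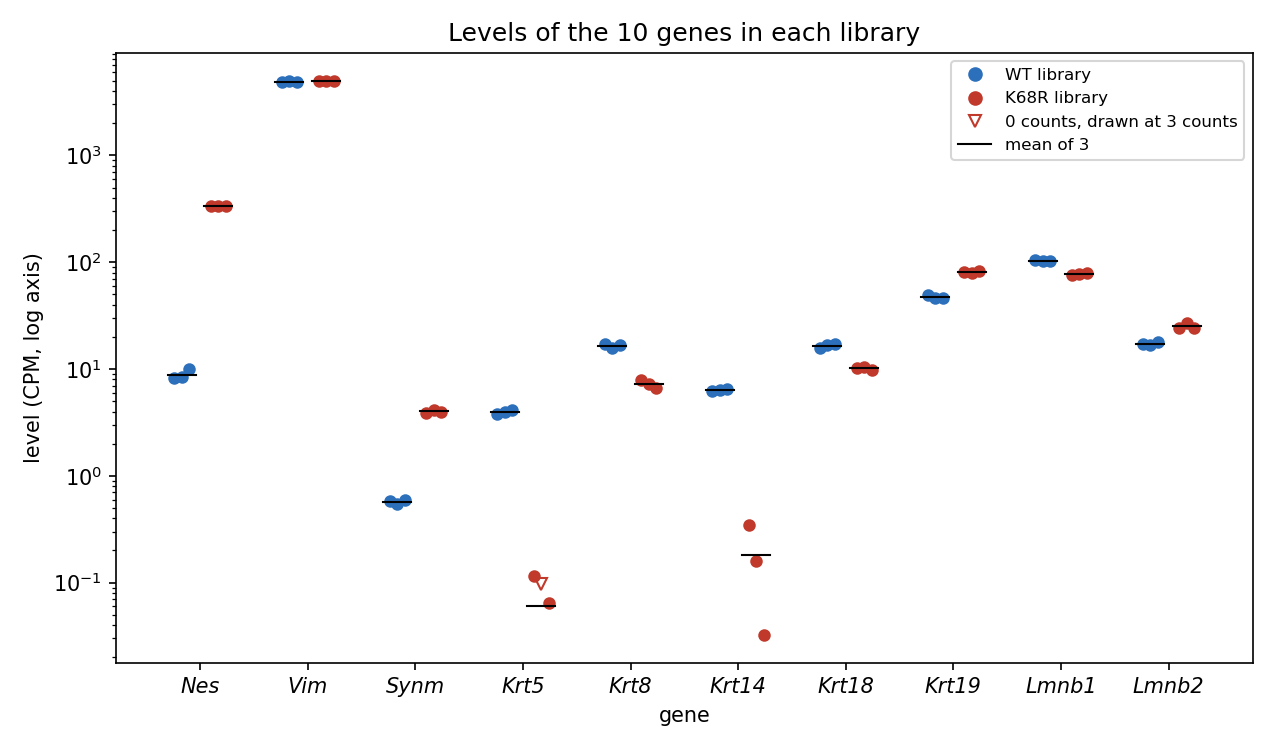
Level of each of the 10 genes (CPM, log axis) in the 3 WT and 3 K68R libraries, with a bar at each mean; an open triangle marks a library with 0 counts, drawn at the floor of 3 counts. Nes rose from about 8.87 to 334 CPM, Vim stayed between 4873 and 5010 CPM, and Krt5 and Krt14 stand between 0 and 0.349 CPM in K68R.

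Nestin was the gene of the 10 with the largest rise. Nes (chromosome 3, 87878400 to 87887758, plus strand, mm39) was at 333, 336 and 333 CPM in the K68R libraries against 8.27, 8.35 and 9.99 CPM in WT. The K68R libraries were all far above the WT ones and nearly equal to one another. The means of 334 ± 1.91 and 8.87 ± 0.974 CPM (SD, n = 3) gave a log2 fold change of 5.24 (standard error 0.0366), a 37.8-fold higher level. Of all tested genes, 99.5% had a lower log2 fold change than Nes. It has 6596 exonic bases at 55.5% GC, and with the length and GC surface taken out its log2 fold change was 3.49, so that it was higher in K68R on both scales.

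Synemin rose with nestin from a much lower level. Synm (chromosome 7, 67379909 to 67409490, minus strand) stood at 3.87, 4.17 and 3.99 CPM in K68R and at 0.582, 0.544 and 0.597 CPM in WT. The groups lay apart, and WT rested on 17 to 24 read pairs per library. Its log2 fold change was 2.79 (standard error 0.199), and the summed counts of 353 and 61 put K68R 6.98-fold above WT (5.31 to 9.32, exact binomial 95% interval, for counting error only). Synm is the longest of the 10 transcripts, with 7866 exonic bases at 51.4% GC, and its log2 fold change was 1.92 with the surface taken out. Before that, its 2.79 lay just above the upper quartile of tested genes with at least 6000 exonic bases and 50% to 60% GC. The quartiles of that class were 0.59 and 2.68.

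Vimentin, the filament on which both depend, was the most abundant of the 10 and hardly differed. Vim (chromosome 2, 13579122 to 13587637, plus strand) was at 5010, 4988 and 4951 CPM in K68R and at 4888, 4952 and 4873 CPM in WT. The ranges of the genotypes touched, with the lowest K68R library just under the highest WT library. The log2 fold change was 0.02 (standard error 0.0148), turned to -0.09 with upper quartile scaling and to -0.02 without a filter on low counts, and was 0.51 with the length and GC surface taken out, since Vim is short (1834 exonic bases) and its GC content of 46.5% is the lowest of the 10. Per kilobase of exon, Vim ranked 4 among all genes of the table in K68R and 9 in WT.

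The balance between these partners shifted accordingly, on the scale of CPM per kilobase of exon. There were 54.2, 53.4 and 53.4 vimentin transcripts per nestin transcript in the K68R libraries and 2126, 2134 and 1754 in the WT libraries. Per synemin transcript there were 5135 to 5547 vimentin transcripts in K68R and 35032 to 39068 in WT. Nestin exceeded synemin by 99.4 ± 3.10 times in K68R and by 18.4 ± 1.52 times in WT (SD, n = 3). Of the summed level of 38 cytoplasmic intermediate filament genes, Vim made up 94.3 ± 0.00708% in K68R and 96.8 ± 0.0560% in WT, and Nes 1.76 ± 0.0145% and 0.0487 ± 0.00562% (SD, n = 3). These ratios carry the same dependence on length and GC content as the levels.

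The basal keratin pair was close to absent in K68R. Krt5 (chromosome 15, 101615504 to 101621340, minus strand), the type II chain, had 3, 0 and 2 counts in the K68R libraries and 156, 125 and 138 in the WT libraries. That is 0.116, 0 and 0.0648 CPM against 3.78, 4.00 and 4.12 CPM, with each K68R library at or under the floor of 3 counts. The summed counts of 5 and 419 put K68R 69.5-fold below WT (29.5 to 215, exact binomial 95% interval). The fitted log2 fold change was -6.03 (standard error 0.332), and -6.31 with the surface taken out. Without K68R replicate 1 it was -6.79 and without K68R replicate 2 it was -5.43, so its size rests on single read pairs.

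Krt14 (chromosome 11, 100093988 to 100098336, minus strand), the type I partner of Krt5, had 9, 5 and 1 counts in K68R and 254, 198 and 217 in WT. In CPM these are 0.349, 0.160 and 0.0324 against 6.16, 6.33 and 6.47. The groups were far apart, and the spread among the K68R libraries is one of a few read pairs. Summed counts of 15 and 669 put K68R 36.96-fold below WT (22.2 to 66.4). The log2 fold change was -5.18 (standard error 0.245), -5.20 with the surface taken out, and -5.98 without K68R replicate 1. In these bulk libraries, fewer cells of a type and less RNA per cell cannot be told apart, for this pair or for any gene below.

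The simple epithelial pair fell less. Krt8 (chromosome 15, 101905146 to 101912777, minus strand), a type II chain, was at 7.86, 7.31 and 6.61 CPM in K68R and at 17.1, 15.7 and 16.7 CPM in WT. All K68R values lay under all WT values, and the means of 7.26 ± 0.628 and 16.5 ± 0.725 CPM (SD, n = 3) differed 2.28-fold. The log2 fold change was -1.19 (standard error 0.0787), and -1.26 with the surface taken out. Krt18 (chromosome 15, 101936651 to 101940461, plus strand), its type I partner, was at 10.3, 10.4 and 9.79 CPM in K68R and at 15.7, 16.7 and 17.1 CPM in WT. It was lower in each K68R library as well, but by less, at 10.2 ± 0.348 and 16.5 ± 0.705 CPM (SD, n = 3). This is -0.69 on the log2 scale (standard error 0.0719), and -0.44 with the surface taken out. The 2 genes lie with their starts 23.9 kb apart on opposite strands, Krt18 being a type I gene at the edge of the type II cluster, and 2 other annotated genes lie between them.

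Krt19 went the other way. This short type I keratin (chromosome 11, 100031636 to 100036752, minus strand) was at 80.7, 79.8 and 82.1 CPM in K68R and at 49.0, 46.3 and 46.1 CPM in WT. The K68R libraries were all above the WT libraries, at 80.8 ± 1.15 against 47.1 ± 1.65 CPM (SD, n = 3), a 1.71-fold higher level. The log2 fold change was 0.78 (standard error 0.0351), and 0.92 with the surface taken out. Its start lies 61.6 kb from that of Krt14 in the same type I cluster and on the same strand, with 2 annotated genes between them.

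Among the 5 keratins, length and GC content varied little, from 1400 to 2205 exonic bases and from 56.4% to 57.6% GC, while their log2 fold changes ran from -6.03 to 0.78. The median over 1137 tested genes with 1000 to 3000 exonic bases and 55% to 60% GC was 0.08, and the quartiles were -0.37 and 0.67. The direction of each of the 5 was the same under every alternative that was run.

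Summed over 26 keratin genes, the level was 1.08-fold higher in K68R, while its make-up shifted more. The sum was 81.0 ± 0.649 CPM per kilobase in K68R and 74.7 ± 1.26 in WT (SD, n = 3), without overlap between the groups. Krt19 held 69.8%, 70.1% and 71.7% of it in the K68R libraries and 45.5%, 44.1% and 44.1% in the WT libraries. Krt8 held 4.97 ± 0.407% and 12.2 ± 0.456%, Krt18 8.98 ± 0.319% and 15.8 ± 0.931%, and Krt14 0.129 ± 0.113% and 4.92 ± 0.202% (SD, n = 3, K68R and WT). The type I members Krt14, Krt18 and Krt19 were summed and set over the type II members Krt5 and Krt8. This ratio was 14.6, 15.8 and 17.6 in K68R and 4.42, 4.603 and 4.37 in WT. It leaves out the other keratins, so it is not one over all type I and type II chains. Of the type II chains left out, Krt7 held 7.33 ± 0.439% and 11.5 ± 0.615% of the keratin sum (SD, n = 3, K68R and WT). Krt80, also type II, held 3.32 ± 0.113% and 1.05 ± 0.153%. Within the simple pair, Krt18 over Krt8 was 1.81 ± 0.113 in K68R and 1.29 ± 0.0960 in WT (SD, n = 3). The sum, the shares and the ratios carry the same dependence on length and GC content as the levels.

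**Figure D2:**
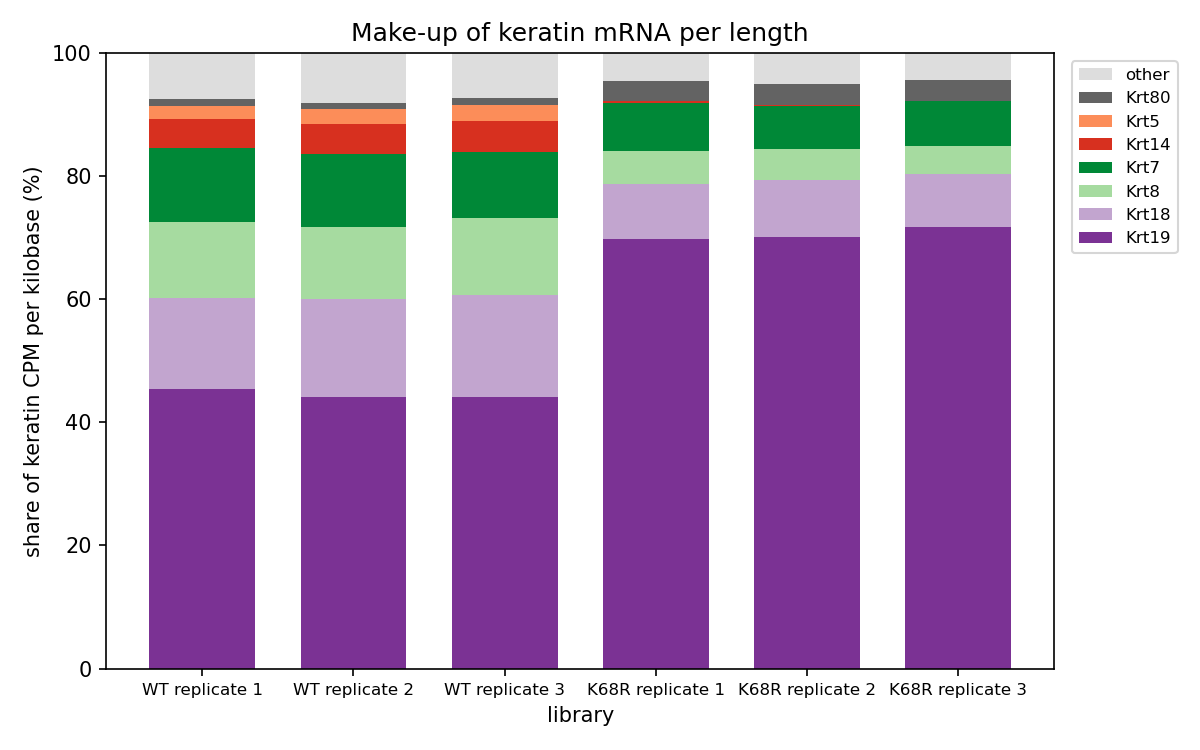
Share of each keratin in the summed keratin CPM per kilobase (%), one bar per library, with genes outside the 7 named ones as other. Krt19 takes 69.8% to 71.7% in the K68R libraries and 44.1% to 45.5% in the WT libraries, and the Krt14 and Krt5 segments of WT are barely visible in K68R.

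The B-type lamins differed by smaller amounts. Lmnb1 (chromosome 18, plus strand) was at 76.3, 76.9 and 78.7 CPM in K68R and at 104, 102 and 102 CPM in WT. Every K68R value was below every WT value, at 77.3 ± 1.25 against 103 ± 1.37 CPM (SD, n = 3), a 1.33-fold lower level. Its log2 fold change was -0.41 (standard error 0.0302), and -0.54 with the surface taken out. Lmnb2 (chromosome 10, 80737197 to 80754079, minus strand) was at 24.0, 26.7 and 24.4 CPM in K68R and at 17.1, 16.7 and 17.8 CPM in WT, so that K68R lay above WT by 1.46-fold. Its log2 fold change of 0.55 (standard error 0.0583) turned to -0.72 with the length and GC surface taken out, and to no negative value under any other alternative. Lmnb2 has 3780 exonic bases at 57.6% GC and Lmnb1 2843 at 53.3%, and the direction for Lmnb2 is therefore not settled by these counts.

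Per kilobase, Lmnb1 exceeded Lmnb2 by 4.22, 3.82 and 4.28 times in K68R and by 8.11, 8.14 and 7.62 times in WT. The sum of both was 33.8 ± 0.546 CPM per kilobase in K68R and 40.7 ± 0.441 in WT (SD, n = 3). Lmna, the A-type lamin, was at 210 ± 2.46 CPM per kilobase in K68R and 70.0 ± 1.20 in WT (SD, n = 3). That put A-type over B-type transcripts at 6.22 ± 0.168 in K68R and 1.72 ± 0.0268 in WT (SD, n = 3). These values carry the same dependence on length and GC content as the levels. With the surface taken out, the log2 fold changes were -0.54 for Lmnb1, -0.72 for Lmnb2 and 1.06 for Lmna. The lower ratio of Lmnb1 to Lmnb2 in K68R is thus not settled by these counts either.

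**Figure D3:**
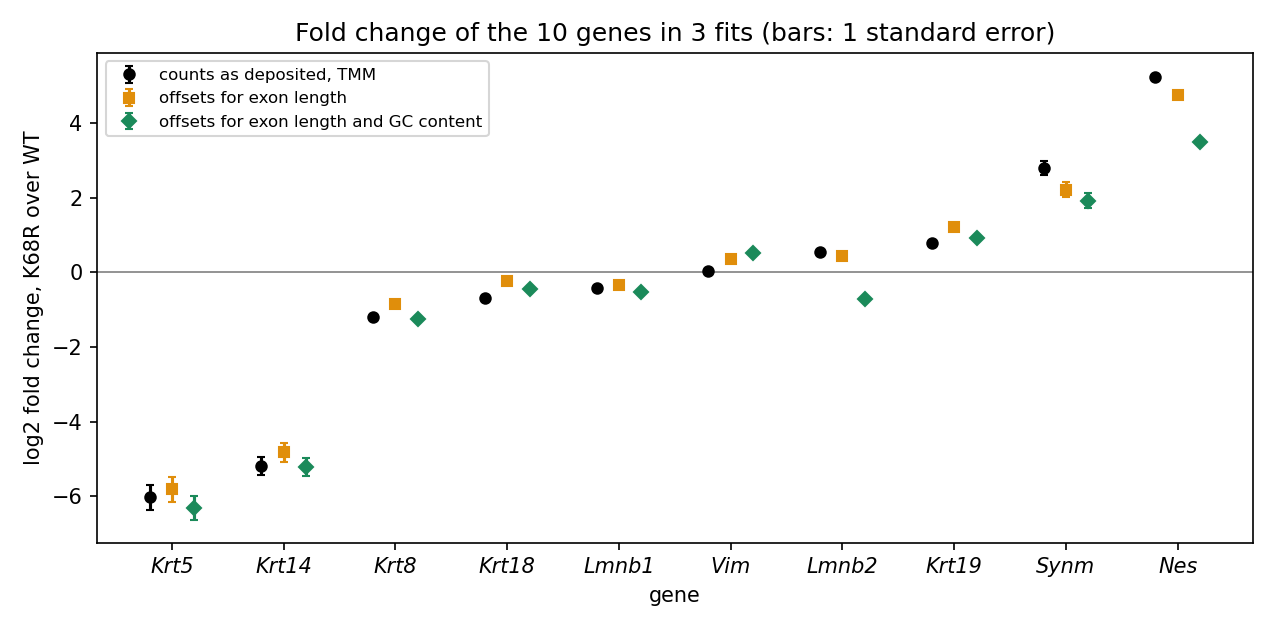
Log2 fold change of K68R over WT for the 10 genes, with bars of 1 standard error, from the counts as deposited, with exon length taken out, and with exon length and GC content taken out. Nes drops from 5.24 to 3.49, Lmnb2 passes from 0.55 to -0.72, Vim moves from 0.02 to 0.51, and the order from Krt5 to Krt8 at the low end is unchanged.

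By level per kilobase, the order in WT was Vim, Lmnb1, Krt19, Krt18, Krt8, Lmnb2, Krt14, Krt5, Nes and Synm, and no neighbours overlapped. In K68R it was Vim, Krt19, Nes, Lmnb1, Krt18, Lmnb2, Krt8, Synm, Krt14 and Krt5. Here Krt18 (6.99 to 7.46) and Lmnb2 (6.35 to 7.07 CPM per kilobase) overlapped, as did Krt14 and Krt5. Nes moved from rank 9 to rank 3 of the 10, at 50.6 ± 0.289 against 1.34 ± 0.148 CPM per kilobase (SD, n = 3).

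**Figure D4:**
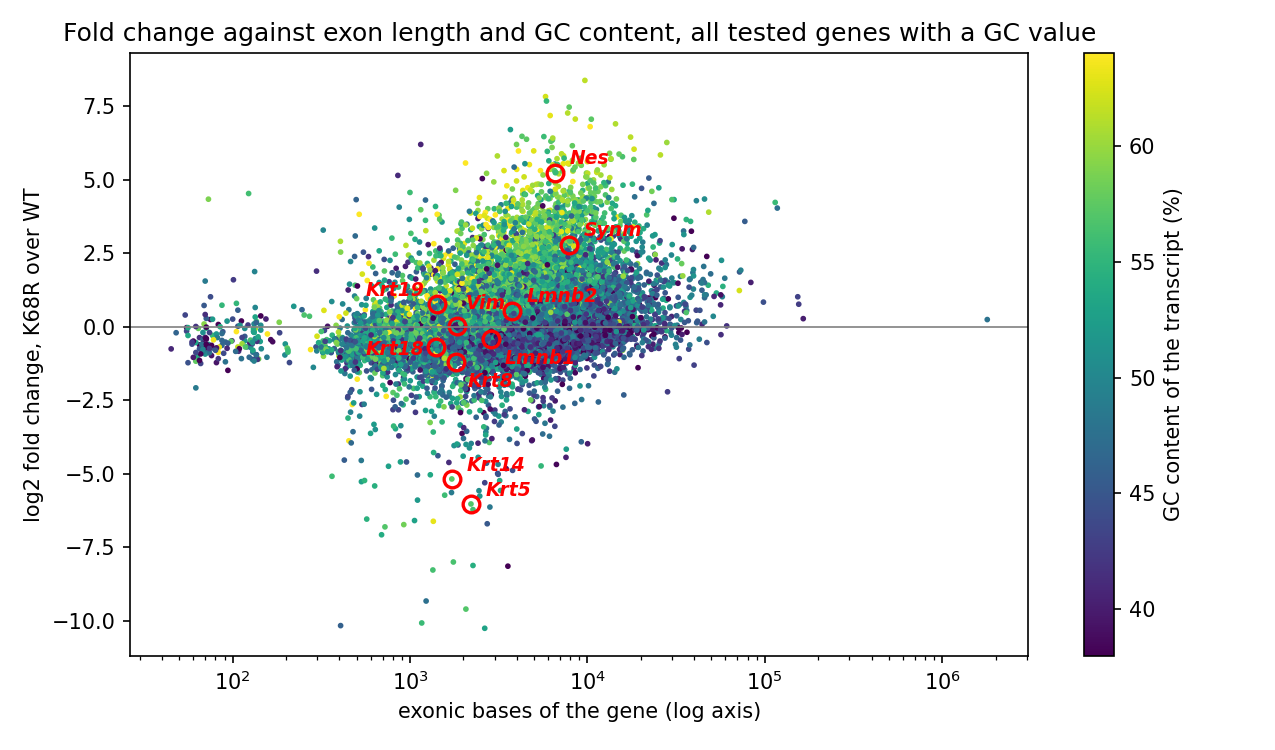
Log2 fold change of K68R over WT against exonic bases (log axis) for tested genes with a GC value, coloured by GC content, with the 10 genes ringed in red. Long GC-rich genes lie high, Nes (5.24) and Synm (2.79) are on that side, and the 5 keratins share a narrow range of length from -6.03 to 0.78.

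Other keratins were measured as a list of 21, of which 9 had enough counts to be tested. Of these, 2 were higher and 7 lower in K68R, with a median log2 fold change of -2.03 beside -0.01 over all tested genes and shares of 40.8% higher and 40.5% lower. With the surface taken out 2 were higher and 6 lower, at a median of -2.18. The tested genes are not an even sample, since 5 of the 9 had under 10 counts in every K68R library and entered through WT alone. The next 3 genes are among these 5, so their values are given without a p. Krt6a, a keratin of activated and stratified epithelium, had 0 counts in K68R and 113 in WT, at least 31.2-fold lower against a floor of 3 counts over the group. Krt16, a partner of Krt6, had 2 counts against 150, 62.2-fold lower (16.9 to 518, exact binomial 95% interval). Krt17, of basal cells and skin appendages, was at 0.234 ± 0.0702 against 1.61 ± 0.384 CPM (SD, n = 3). The fitted log2 fold changes of Krt16 and Krt17 were -5.73 and -2.72, and -5.55 and -2.80 with the surface taken out. Krt80 rose instead, from 2.60 ± 0.379 to 8.93 ± 0.232 CPM (SD, n = 3; edgeR, adjusted p = 1.46e-22), with a log2 fold change of 1.77, or of 1.53 with the surface taken out.

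Outside the keratins, 9 of 12 other intermediate filament genes were tested. Of these, 6 were higher, 0 lower and 3 without a call, beside 40.8% higher and 40.5% lower among all tested genes. The median of the 9 was 1.59, and 0.66 with the surface taken out (6 higher and 2 lower there, beside 37.1% and 38.2% of all genes). Of the 9, 1 (Ina, named after its values were seen) had under 10 counts in every WT library and could pass the filter through K68R alone. Des, the desmin of muscle that partners nestin and synemin, rose 2.57-fold, with 91.8 ± 2.201 against 35.7 ± 1.00 CPM (SD, n = 3; edgeR, adjusted p = 6.06e-45), and its log2 fold change of 1.36 became 0.65. Lmna was 3.00-fold higher (edgeR, adjusted p = 1.18e-65), and its log2 fold change of 1.59 was 1.06 with the surface taken out. Iffo1 and Iffo2, relatives of the lamins, had log2 fold changes of 2.23 and 3.21, and of 1.24 and 1.41 with the surface taken out. The genes without a call were Nefl, Prph and Bfsp1, named after their values were seen, with 0.10, -0.26 and 0.47, and the last 2 were the lower ones with the surface taken out (-0.95 and -1.004).

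Transcripts of the proteins that tie intermediate filaments to junctions and to other filaments were mostly higher. Of 19 tested plakin, desmosome and hemidesmosome genes, 13 were higher, all of them at least 2-fold (22.1% of all tested genes were called and at least 2-fold higher), 3 were lower and 3 had no call. Of the higher genes, Evpl and Eppk1, named after their values were seen, had under 10 counts in every WT library and passed the filter through K68R alone, and 1 of the lower genes entered through WT alone, so the count is not to be read against that share. Their median was 2.67 on the log2 scale, and 0.97 once the surface was taken out, when 11 were higher and 4 lower. Plec, the plectin that links vimentin and keratin filaments to actin and adhesion sites, had a log2 fold change of 6.45, which became 2.64. Dst and Macf1, giant linkers of filaments and microtubules, had 4.28 and 2.70, which became 2.77 and 1.498. Jup, the plakoglobin of desmosomes and adherens junctions, was at 141 ± 1.87 against 13.2 ± 0.789 CPM (SD, n = 3), 10.8-fold higher (edgeR, adjusted p = 1.15e-66), with 1.26 on the log2 scale after the surface was taken out.

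Of 17 genes of lamina partners and lamin processing enzymes, 9 were higher, 7 lower and 1 without a call. The shares over all tested genes were 40.8% higher and 40.5% lower. The list median was 0.08, and -0.13 with the surface taken out. Syne1 and Syne2, the giant nesprins that couple the nucleus to the cytoskeleton, had log2 fold changes of 4.34 and 3.46, and 2.65 and 2.17 with the surface taken out. Sun2, their anchor in the inner nuclear membrane, rose 3.53-fold, with 82.8 ± 1.55 against 23.5 ± 0.146 CPM (SD, n = 3; edgeR, adjusted p = 2.46e-50), and Lemd2, an inner membrane protein, 5.28-fold higher (edgeR, adjusted p = 1.65e-44). Their log2 fold changes after the surface was taken out were 0.44 and 0.52. The 5 enzymes of lamin processing on the list, named after their values were seen, were the farnesyltransferase chains Fnta (-0.33, and 0.11 with the surface taken out) and Fntb (0.06 with no call, and -0.40), the proteases Rce1 (-0.76, and -0.67) and Zmpste24 (-0.37, and 0.08), and the methyltransferase Icmt (0.90, and -0.13). The sign of 4 of them thus turned with the surface taken out. Without the centring of the offsets, described under the processing, values are 0.20 higher. The turn of Icmt and that of the list median rest on this centring.

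**Figure D5:**
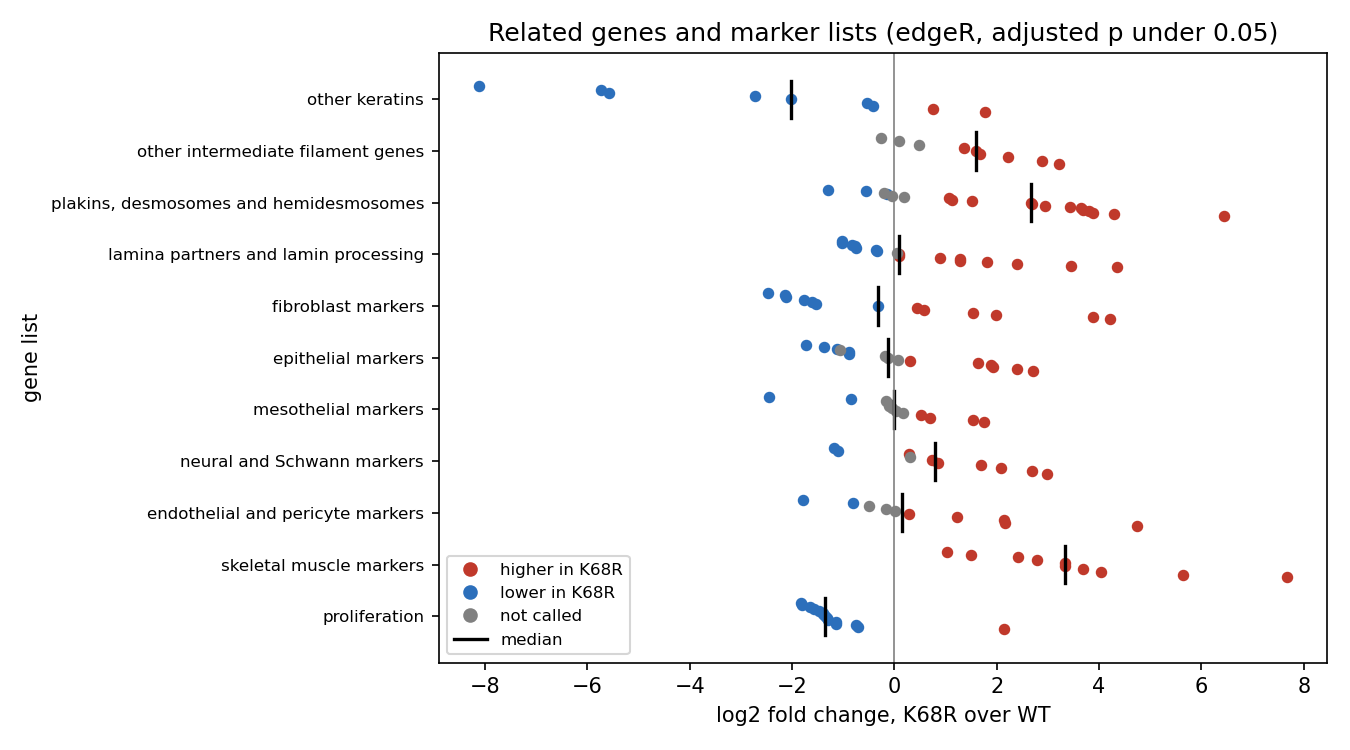
Log2 fold change of K68R over WT for each tested gene of 11 lists, one point per gene, coloured by its call (edgeR, adjusted p under 0.05), with a black bar at the list median. The other keratins have a median of -2.03, the plakins and junction genes 2.67, the skeletal muscle markers 3.34 and the mesothelial markers -0.01.

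Markers of cell types known for these filaments were measured beside them, and their part in the results was not tested. The counts of these marker lists stand beside 40.8% of all tested genes higher and 40.5% lower. With the surface taken out these shares were 37.1% and 38.2%. Of 15 tested epithelial markers (20 listed), 6 rose, 5 fell and 4 had no call, and the median was -0.13. The summed level of the list was 48.6 to 53.6 CPM in K68R and 27.9 to 28.8 CPM in WT, and Ehf was at 0 in all K68R libraries. The sum was led by Sfn, the stratifin of keratinocytes, at 19.5 ± 1.09 against 5.11 ± 0.348 CPM (SD, n = 3), and St14, Esrp2 and Cldn3 were also higher (6.55-fold, 5.26-fold and 3.11-fold). With the surface taken out these 4 had log2 fold changes of 1.95, 2.85, 1.31 and 1.32, and the list had 6 genes higher, 5 lower and a median of 0.02. The defining markers Epcam and Cdh1, chosen after their values were seen, were lower, at 0.716 against 1.58 and 1.06 against 1.97 CPM (-0.92 and -1.07 on the log2 scale with the surface taken out). Trp63, the transcription factor of basal keratinocytes, chosen likewise, had 47 counts in K68R and 15 in WT (1.89 on the log2 scale, and 2.02), opposite in direction to Krt5 and Krt14. It was tested through its K68R level alone, with under 10 counts in every WT library, and 1 other gene of this list through its WT level alone.

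Markers of mesothelium, a lining that expresses Krt8, Krt18 and Krt19, went both ways, 4 of 12 being higher, 2 lower and 6 without a call, at a median of -0.01. With the surface taken out 6 were higher and 4 lower, at a median of 0.10. Their summed level was 102 to 107 CPM in K68R and 95.04 to 96.4 CPM in WT. Upk1b, the highest per kilobase, was at 18.7 ± 1.22 and 19.9 ± 1.06 CPM (SD, n = 3) and not called. Its log2 fold change of -0.10 turned to 0.22 with exon length taken out and to 0.36 with length and GC content taken out, and was then called (edgeR, adjusted p = 0.0012 and 3.19e-07). Nkain4 was 3.34-fold and Ildr2 1.61-fold higher, and Bnc1 was 1.81-fold and Cldn15 5.44-fold lower. Their log2 fold changes with the surface taken out were 2.14, 0.13, -0.91 and -2.26.

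Cell types in which nestin is known gave the following. Of 11 skeletal muscle markers, 10 were tested and these were higher, with a median of 3.34 and of 2.65 with the surface taken out, and a summed level of 170 to 173 CPM in K68R and 38.4 to 40.2 CPM in WT. Pax3, of muscle progenitors, was 10.05-fold, Myh3, an embryonic myosin, 49.9-fold, Ttn 16.4-fold and Acta1 2.04-fold higher, and with the surface taken out they had log2 fold changes of 3.45, 4.44, 2.44 and 1.12. Of the 10, Pax7 and Myf5, named after their values were seen, had under 10 counts in every WT library and passed the filter through K68R alone, so neither the count nor the median is to be read as one over the whole list. Of 10 tested neural and Schwann markers (14 listed), 7 rose, 2 fell and 1 had no call, at a summed level of 64.8 to 66.9 against 42.2 to 45.05 CPM. The median of this list was 0.79, and 0.41 with the surface taken out. Sox2, named after its values were seen, was among those that fell, at -1.10 on the log2 scale, and -0.85 with the surface taken out. Msi1, Dcx and Tubb3 were 6.46-fold, 7.88-fold and 1.80-fold higher, and 0.98, 3.10 and 0.74 on the log2 scale with the surface taken out, when 4 markers of this list were higher and 3 lower. Of these 10, 2 had under 10 counts in every WT library and passed through K68R alone, Dcx among them. Of 10 endothelial and pericyte markers, 5 rose, 2 fell and 3 had no call, at 503 to 512 against 223 to 227 CPM. Cspg4, Kdr and Rgs5 were 26.7-fold, 4.46-fold and 4.43-fold higher, and their log2 fold changes of 4.74, 2.16 and 2.15 became 1.88, 1.67 and 2.55. With the surface taken out 4 of this list were higher and 3 lower, and Pdgfrb, at a log2 fold change of 0.29, turned to -1.20. The list median went from 0.15 to -0.14, a turn of sign that rests on the centring of the offsets.

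Proliferation genes are given because Lmnb1 is known to be high in dividing cells. Of 15, 14 were lower and 1 was higher in K68R, beside 40.5% lower and 40.8% higher among all tested genes. The median of the 15 was -1.36, and -0.98 with the surface taken out. Their summed level was 1220 to 1246 CPM in K68R and 2714 to 2727 CPM in WT. Ccnb1, Pcna and Rrm1 were 3.50-fold, 2.57-fold and 2.45-fold lower, and Mki67 was higher, by 2.14 on the log2 scale. With the surface taken out these 4 had -1.36, -0.80, -0.93 and 1.81. Lmnb1 itself was 1.33-fold lower, and whether the 2 are linked was not tested.

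Genes with the pattern most like 3 of the members were named by the distance between their 6 log2 CPM values, each set less its own mean. Only tested genes of established symbol (not Gm, Rik or LOC) were ranked and counted. The nearest to Nes were Bcr, Cic and Cep250, at distances of 0.12 to 0.19, and 21 genes lay within 0.5. The nearest to Krt14 were Thbs4, Ifit1 and Ccl5, at 0.66 to 1.43, and no gene lay within 0.5. The nearest to Lmnb1 were Rab2a, Selenof and Tiprl, at 0.02 to 0.03, with 4839 genes within 0.5, so that its pattern is a common one in these libraries. With 6 libraries in 2 groups, this distance is mostly one of the size of the difference between the genotypes.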

How the data were processed

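The 3 K68R and 3 WT libraries were built from poly(A) RNA with a kit that keeps strand (RNA integrity number above 4, per the labels' protocols). The deposited values are unnormalized counts of read pairs over each gene. Per the file headers, featureCounts 2.0.6 counted over exons of the RefSeq annotation of mm39 with no strand option and no multi-mapped reads, so reads of overlapping antisense genes, or of pseudogene copies such as those of Krt8 and Krt18, may be lost or misassigned; no exonic base of the 10 genes is shared with another annotated gene. HISAT2 2.2.1 is named in the submitters' processing notes.

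Groups came from the titles. The labels call the samples biological replicates, and nothing names separate embryos or cultures, so a p-value speaks of the spread of these libraries alone, part of which may be technical. Within a genotype, libraries differed by more than sampling noise (chi-square per gene 1.85 to 2.29), and all 6 were used. Between genotypes the value was 323 to 422. A difference in culture, RNA quality or library preparation shared by the libraries of a genotype cannot be told apart from the knock-in.

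Counts were fitted over all genes with edgeR 4.0.16 in R 4.3.3 (filterByExpr, TMM, robust quasi-likelihood F test, Benjamini-Hochberg), checked on simulated data. Log2 CPM used a prior count of 2. Alternatives were DESeq2 1.42.0, limma 3.58.1 (voom), other scalings and filters, an adjusted p of 0.01, a replicate block, leaving out each library, and offsets from smooth curves of exon length, or surfaces of exon length and GC content, fitted per library with mgcv 1.9.3. GC content came from the longest GENCODE M21 transcript of each symbol and was had for 93.6% of tested genes. These offsets were centred, a choice made after values were seen, so that the median gene has a log2 fold change of 0; without centring, values are 0.20 higher with length and GC content and 0.06 higher with length alone.

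The 10 genes and all gene lists were chosen with earlier results of these data known. Named genes are the 10, Sod2, up to 4 called genes of each list with the smallest p, the highest gene per kilobase of each marker list, and 3 genes nearest in pattern to Nes, Krt14 and Lmnb1. A gene that the rule names is not reported here. Without molecular identifiers reads are not independent molecules, so floors and intervals hold for counting error alone.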

Additional observations from a re-analysis of the deposited data

How the results depend on the processing

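The number of genes called over the whole table lay between 11786 and 14702 in all alternatives that were run (13613 as reported). The direction of Nes, Synm, the 5 keratins and Lmnb1 was the same in all of them. Vim changed sign to -0.092 with upper quartile scaling, which shifts the median of all genes to -0.12, and to -0.015 without a filter, and Lmnb2 to -0.72 with length and GC offsets. With the length offsets Pdgfrb turned to -0.15 and Upk1b to 0.22, and with length and GC offsets they turned to -1.20 and 0.36. With length and GC offsets 2 other intermediate filament genes were lower instead of 0, 4 mesothelial markers lower instead of 2, and 4 neural and Schwann markers higher instead of 7. Upper quartile scaling put 5 mesothelial markers lower. The filter of 1 CPM in 3 libraries left 4 other keratins lower instead of 7, since fewer genes were tested. The cause of the other changes was not tested. The replicate numbers do not pair the samples: same-numbered libraries correlated by -0.0095, 0.013 and 0.013 in their deviations, not every library did so best with its own number, and with the replicate number as a block 13567 genes were called. Depth limits Krt5, Krt14, Krt6a and Krt16 in K68R, which rest on 0 to 15 counts in all.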
